A study of Bactrocera dorsalis with 6 samples.

Results

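The eggshell unigenes of mated females of the oriental fruit fly, Bactrocera dorsalis, are 2 of the 10799 unigenes in the deposited tables. A unigene is a group of assembled transcripts that the Trinity assembler assigned to a single gene. The 2 unigenes were chosen by their matches to D. melanogaster proteins and for their high values in mated females. The unigene comp24503_c0 is paired with Cp19 (FBgn0000358), which is annotated as a structural constituent of the chorion. The unigene comp24600_c0 is paired with FBgn0003979, a vitelline membrane gene. Together they have 3 of the 20666 isoforms.

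The dipteran eggshell is made in the ovary by the follicle cells, a somatic epithelium that surrounds each growing oocyte. The follicle cells first secrete vitelline membrane proteins, which form the layer next to the oocyte, and later the chorion proteins, which form the outer layers. In D. melanogaster, the species from which all roles given here are known, these genes are transcribed strongly for short periods in the second part of oogenesis, and the chorion genes are amplified in the follicle cells beforehand.

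RNA of whole insects from a laboratory colony kept on artificial diet was sequenced for 3 immature stages (eggs, larvae and pupae) and for adults, divided into males and females kept apart as virgins and females that had mated. The libraries were 1 per stage, each pooled from daily collections apart from the mated females, which were frozen after mating was observed. No genotype or treatment differed between them, and library totals ranged from 7386960 to 9905262 expected counts. With 1 library per stage there is no replicate check, no test between stages was run and no p-value is given, so each comparison is between libraries and not between conditions. At the 95% level, exact Poisson intervals are given for counts, exact binomial ones for count ratios and Wilson ones for shares. These cover counting error only. As the transcripts were assembled without a genome, the unigenes have no coordinates.

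The sex labels of the adult libraries were checked with the unigene of doublesex (dsx), comp25690_c0, whose transcripts are spliced by sex in flies. Its isoform comp25690_c0_seq1 took 55.8% of the dsx counts in mated females (51.3% to 60.2%), 0.203% in males (0.0454% to 1.44%) and 1.28% in virgin females (0.583% to 3.15%). The isoform comp25690_c0_seq6 took 1.45%, 54.1% and 34.1%. The library of virgin females therefore lay nearer to the males than to the mated females in dsx splicing. It is called the library labelled female below, and every direction drawn from it depends on a label that the dsx shares go against.

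Both eggshell unigenes were abundant in mated females and close to absent in the other 5 libraries. The chorion unigene comp24503_c0 had 12700 expected counts in mated females (interval 12480 to 12923). Eggs held 3 counts, larvae 5, pupae 1, males 4 and the library labelled female 2. Of its 12715 counts, 99.9% came from mated females.

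The unit FPKM gives fragments normalized to the length of the unigene and the size of the library, here scaled by the authors with TMM factors. The chorion unigene was at FPKM 1105 in mated females (1086 to 1124), against 0.27 in eggs, 0.67 for larvae, 0.12 for pupae, 0.38 for males and 0.21 for the library labelled female. Upper limits of the intervals in the other libraries were at most FPKM 1.55. The unigene was chosen for its high value in mated females, so the gap to them is a description only. The next highest library was larvae, and the ratio of mated females to larvae was 1658 (710.4 to 5108). On the scale of log2(FPKM + 1), which understates the change of a unigene with low values, this difference was 9.37. Against the other 5 libraries together the ratio was 3460 (2097 to 6184).

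The vitelline membrane unigene comp24600_c0 had 32912 expected counts in mated females (32557 to 33270). Eggs held 5 counts, larvae 1, pupae 6, males 1 and the library labelled female 4. Mated females again held 99.9% of the counts, 32912 of 32929.

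Per length, the level of comp24600_c0 in mated females was FPKM 5625 (5565 to 5686). It was 0.89 in eggs, 0.26 for larvae, 1.41 for pupae, 0.18 for males and 0.84 in the library labelled female. Pupae were thus the next library, with a ratio of 4002 (1839 to 10907) and a difference of 11.19 in log2(FPKM + 1). Against the other 5 libraries together the ratio was 7912 (4941 to 13583).

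**Figure D1:**
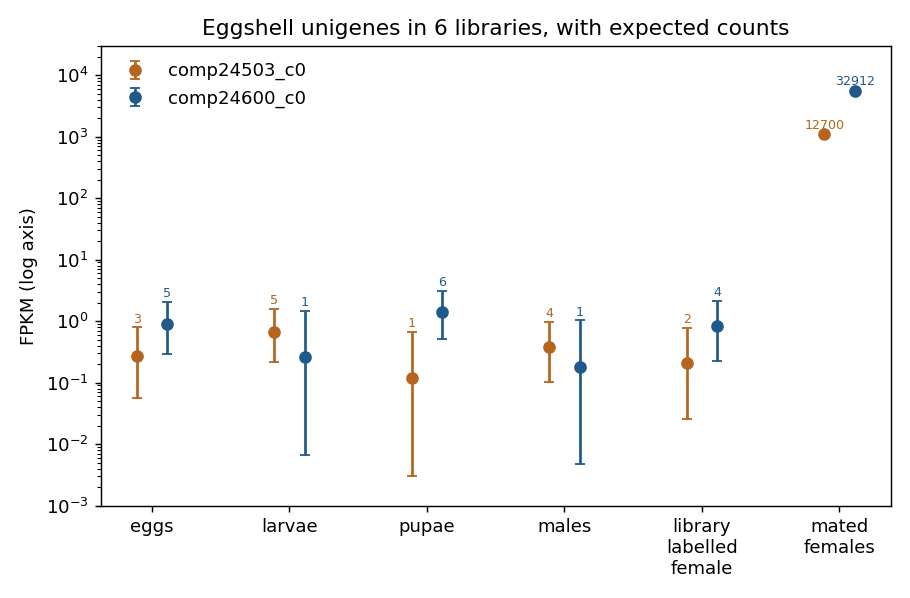
FPKM of comp24503_c0 (brown) and comp24600_c0 (blue) in the 6 libraries, on a log axis. Points are single libraries, bars are 95% Poisson intervals of the counts, and the number above each point is the expected count. Mated females stand at FPKM 1105 and 5625, and the other libraries between 0.12 and 1.41.

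Among the other 5 libraries neither unigene gave an order that the depth could show. For comp24503_c0 the order ran from larvae through males, eggs and the library labelled female to pupae. For comp24600_c0 it ran from pupae through eggs, the library labelled female and larvae to males. The highest library of the vitelline membrane unigene was thus the lowest of the chorion unigene, but the interval of the ratio included 1 for all 10 pairs of these libraries, for each of the unigenes. The counts over the 5 libraries were 15 for comp24503_c0 (8.4 to 24.7) and 17 for comp24600_c0 (9.9 to 27.2). These counts are not scaled by length, at 1157 bp and 589 bp, so the levels of the unigenes were not compared from them. In whole insects, fewer follicle cells and less RNA per follicle cell cannot be told apart.

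These low counts were read beside those of other unigenes that were high in mated females and low elsewhere. A group of 12 unigenes, members included, had at least 5000 counts in mated females and fewer than 1 in 100 of that number in each other library, by bounds chosen after the values were seen. With libraries scaled by their effective totals, levels were expressed as parts per 1000000 (ppm) of the level in mated females. The median over the 12 unigenes was 232 ppm in eggs, 329 ppm in larvae, 329 ppm in pupae, 271 ppm in males and 272 ppm in the library labelled female. The chorion unigene was at 245 ppm in eggs, 603 for larvae, 108 for pupae, 340 for males and 193 in the library labelled female. The vitelline membrane unigene was at 158, 46.5, 250, 32.8 and 149 in the same order. The lowest value of the group in larvae was that of comp24600_c0 itself and the lowest in pupae that of comp24503_c0. As the group was picked by these values and holds the members, its range is no reference for them. Whether these reads came from transcripts of the stage itself was not tested.

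The eggs are of interest because their shells had been made before they were laid. The 2 unigenes had 8 counts between them in eggs. Of the 10799 unigenes, 66 were at FPKM 26 or more in both eggs and mated females and below 4 in the other 4 libraries. The median of these 66 unigenes was FPKM 75.3 in eggs and 67.7 in mated females. The bounds fixed this pattern, so the group is no reference for the eggshell unigenes. In eggs comp24503_c0 was lower than in mated females by a ratio of 4082 (1397 to 19799) and comp24600_c0 by 6348 (2720 to 19551).

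The adult libraries gave the same contrast. In males the ratio of mated females to males was 2939 for comp24503_c0 (1148 to 10788), from 4 counts in males, and for comp24600_c0 males had a single count. For the library labelled female the ratio was 5170 (1431 to 42698) for the chorion unigene and 6700 (2616 to 24590) for the vitelline membrane unigene. Males and virgin females were both collected daily from emergence as virgins, and the mated females after that period. For the virgin females mating and age cannot be told apart, and for the males sex, mating and age cannot. The dsx shares above leave the sex of the library labelled female in doubt.

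Within the mated female library comp24600_c0 was in place 3 of the 10799 unigenes by FPKM and comp24503_c0 in place 90. The unigenes above comp24600_c0 were comp28593_c1, paired with FBgn0004045, at FPKM 18398, and comp28816_c2, paired with FBgn0001233, at 11280. Outside mated females comp28593_c1 reached at most FPKM 278, the value of males, and eggs had 8.18. It was thus more than 10 times higher in mated females than elsewhere, but less confined to them than the eggshell unigenes. By contrast, comp28816_c2 was at 3086 for eggs, 17936 for the library labelled female and 15458 for males, so mated females were not its highest library. The median unigene of the mated female library was at FPKM 7.73. In the other 5 libraries both eggshell unigenes were in place 7881 or further down, with between 14.8% and 27.0% of the unigenes beneath them.

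The eggshell unigenes took 45612 counts of the mated female library, 0.508% of its total (0.503% to 0.512%). In the other 5 libraries together they took 32 counts, or 0.776 per 1000000 counts (CPM). The vitelline membrane unigene had 2.59 times the counts of the chorion unigene in mated females. Per length its level was 5.09 times higher (4.99 to 5.20), since the recovered length was 589 bp for comp24600_c0 and 1157 bp for comp24503_c0. Both were shorter than the median unigene, at 1808 bp.

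Across all unigenes, the FPKM of mated females with 1 added was at least 10 times that of every other library for 30 unigenes, 0.278% of those tested. Both eggshell unigenes were among them, as the choice of the members fixed. The unigenes tested include the 1203 without egg counts, which are listed at FPKM 0 in every library and could not pass. With their FPKM recomputed from counts and isoform lengths, an alternative added after seeing the data, 56 unigenes (0.519%) passed, and by scaled counts without the added 1 the number was 73 (0.676%). By pairs of libraries the share by deposited FPKM was 2.1% against eggs, 2.8% against larvae, 2.83% against pupae, 1.94% against males and 1.94% against the library labelled female. With the recomputed values these shares were 2.98%, 3.49%, 3.44%, 2.23% and 2.23%. By the ratio to the next highest library comp24600_c0 was in place 1 and comp24503_c0 in place 6.

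**Figure D2:**
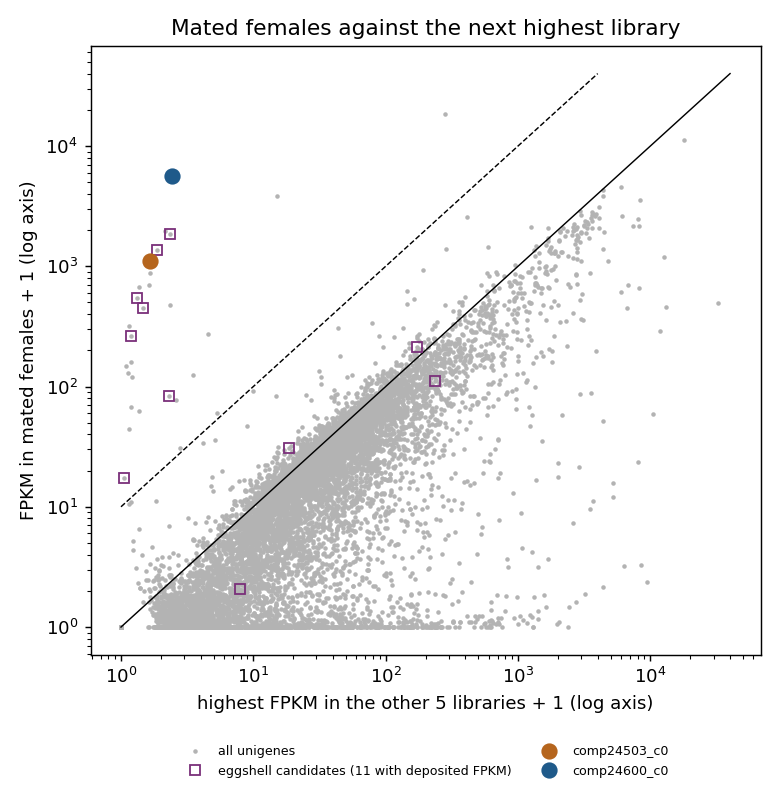
FPKM + 1 in mated females (vertical) against the highest FPKM + 1 of the other 5 libraries (horizontal), both on log axes, for all unigenes (grey), the members (filled) and the 11 eggshell candidates with a deposited FPKM (squares). The solid line marks equal values and the dashed line a ratio of 10, above which both members lie.

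An FPKM of at least 11 in mated females and below 11 elsewhere, a bound set here, was met by 81 unigenes (0.75%), with a median FPKM of 15.5. Their number was 112 (1.04%) with recomputed FPKM for the unigenes listed at 0 and 159 with FPKM summed over isoforms. By level comp24600_c0 was in place 1 of the 81 and comp24503_c0 in place 5, which follows from their choice for high values in mated females. With at least 26 in mated females and below 4 elsewhere 27 unigenes (0.25%) remained, both members included. By deposited FPKM, 23 of the 10799 unigenes were at 11 or more in mated females with at least 99% of their summed FPKM there. Both members were among the 23, which again follows from their choice, and the unigenes listed at FPKM 0 could not pass.

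The chorion unigene was represented by a single isoform, comp24503_c0_seq1, at an isoform FPKM of 1216 in mated females. It had the same 12700 counts and the same length as its unigene, and the isoform value was higher because the authors' TMM factor for mated females was higher in the unigene table than in the isoform table. The vitelline membrane unigene had 2 isoforms, with recovered lengths of 590 bp and 584 bp. In mated females comp24600_c0_seq1 had 18465 counts and comp24600_c0_seq2 had 14447. These were 56.1% (55.6% to 56.6%) and 43.9% (43.4% to 44.4%) of the unigene.

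The isoforms of comp24600_c0 were therefore both abundant in mated females, at isoform FPKM 3466 and 2740. The ratio of their counts was 1.28 (1.25 to 1.31). In the other 5 libraries comp24600_c0_seq1 had 12 of 17 counts, 70.6% with an interval of 46.9% to 86.7% that includes its share in mated females. A count of 0, as for comp24600_c0_seq2 in males, allows up to 3 counts as a one-sided limit, and its 2-sided Poisson interval ends at 3.69. The recovered lengths of the isoforms differ by 6 bp, and how much of their sequence is shared was not checked. RSEM divides shared reads by estimation, so the interval on the share does not cover the error of that division. Likewise, reads could be divided with a near-identical gene copy, which could not be checked here without the sequences.

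**Figure D3:**
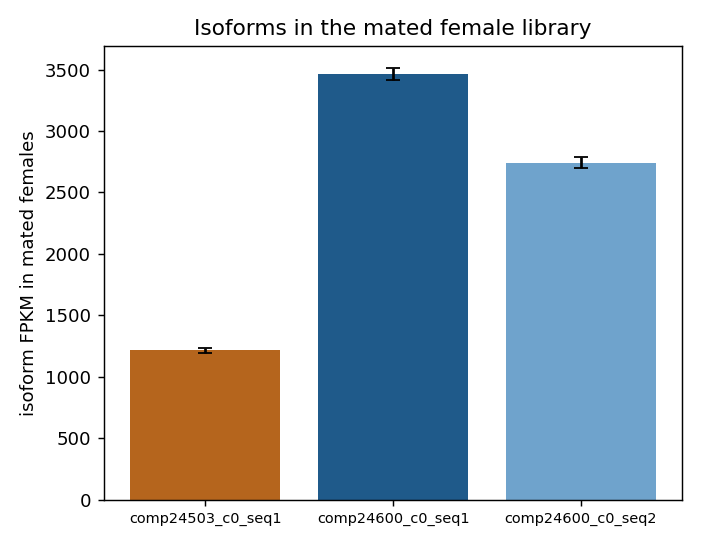
Isoform FPKM of the 3 isoforms in the mated female library, with bars from 0 and error bars for the 95% Poisson interval of the counts. The chorion isoform is at 1216 and the vitelline membrane isoforms are at 3466 and 2740.

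The unigenes with the most similar profiles were found by Euclidean distance of log2(FPKM + 1) over the 6 libraries. The nearest to comp24503_c0 was comp22428_c0, paired with FBgn0000359, at a distance of 0.47 and FPKM 1361 in mated females. It was followed by comp26451_c0 at 0.47, comp30326_c0 at 0.48, comp21802_c0 at 0.83 and comp24831_c0, paired with FBgn0031111, at 1.03. Their FPKM in mated females was 873, 1095, 700 and 673. As the choice of the nearest profiles fixed, all 5 were high in mated females and below FPKM 0.9 in each of the other libraries.

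The vitelline membrane unigene had more distant neighbours, as few unigenes reached its level. The nearest was comp26208_c0, paired with FBgn0000360, at a distance of 1.67 and FPKM 1861 in mated females, and the next was comp20055_c0 at 2.07 and FPKM 1980. The others were comp22428_c0 at 2.42, comp30326_c0 at 2.56 and comp24503_c0 itself at 2.76. The chorion unigene was thus the fifth nearest to the vitelline membrane unigene, which was in place 14 for the chorion unigene, and the 5 nearest of each had 2 unigenes in common. The 6 libraries give few points and most of the distance comes from the level in mated females, so these distances are a description.

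A further 14 unigenes were taken as eggshell candidates, since the D. melanogaster genes paired with them were held to act in the eggshell or its assembly. The sources used here give only the identifiers of these genes, so they are given by identifier. The list was chosen with earlier results of these data known, so its shares are set beside all unigenes as a description only. By the deposited FPKM 9 of the 14 were highest in mated females, against 9.27% of all unigenes. Another 3, comp20869_c0, comp26719_c0 and comp28719_c0, were listed at FPKM 0 in every library, although they had 2899, 1509 and 894 counts in mated females. All 1203 unigenes without egg counts are listed in this way, and 93 of them had at least 100 counts in mated females. The members had egg counts and were not affected.

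As an alternative added after seeing the data, FPKM of the unigenes listed at 0 was recomputed with lengths of their isoforms. Then 12 of the 14 candidates were highest in mated females, against 9.99% of all unigenes. The median FPKM in mated females was 117 over the candidates and 8.29 over all unigenes. The median difference in log2(FPKM + 1) between mated females and the next highest library was 5.10 over the candidates and -1.01 over all unigenes. The candidates fell into 3 patterns. Like the members, 10 of them were more than 10 times as high in mated females as in any other library by scaled counts, against 0.676% of all unigenes. Another 2 were high in eggs and mated females, and 2 were highest elsewhere.

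The 10 candidates that resembled the members had between 894 and 25793 counts in mated females and between 0 and 28 in any other library. The highest was comp26208_c0 at FPKM 1861 and the lowest was comp30366_c0, paired with FBgn0002926, at FPKM 16.4. In mated females all 10 were below comp24600_c0, and 2 of them, comp26208_c0 and comp22428_c0, were above comp24503_c0. Of the pair of unigenes matched to FBgn0000427 without a unique best hit, comp23290_c0 was at FPKM 539 and comp20869_c0 at a recomputed 122, and both had at most 7 counts in any other library.

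The candidates with eggs were comp27119_c0, paired with FBgn0261987, at FPKM 173 in eggs and 214 in mated females, and comp30547_c0, paired with FBgn0004650, at 17.6 and 29.8. In the other 4 libraries they were at FPKM 0.11 or less. Among the remaining candidates, comp27377_c0, matched to FBgn0003867 without a unique best hit, was at FPKM 111 in mated females and highest in pupae, at 233. The unigene comp30571_c0, paired with FBgn0039709, was at 1.06 in mated females. It was at 6.91 in the library labelled female (6.31 to 7.55) and 6.44 in males (5.90 to 7.02), with overlapping intervals. Neither of these candidates shared the pattern of the members.

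**Figure D4:**
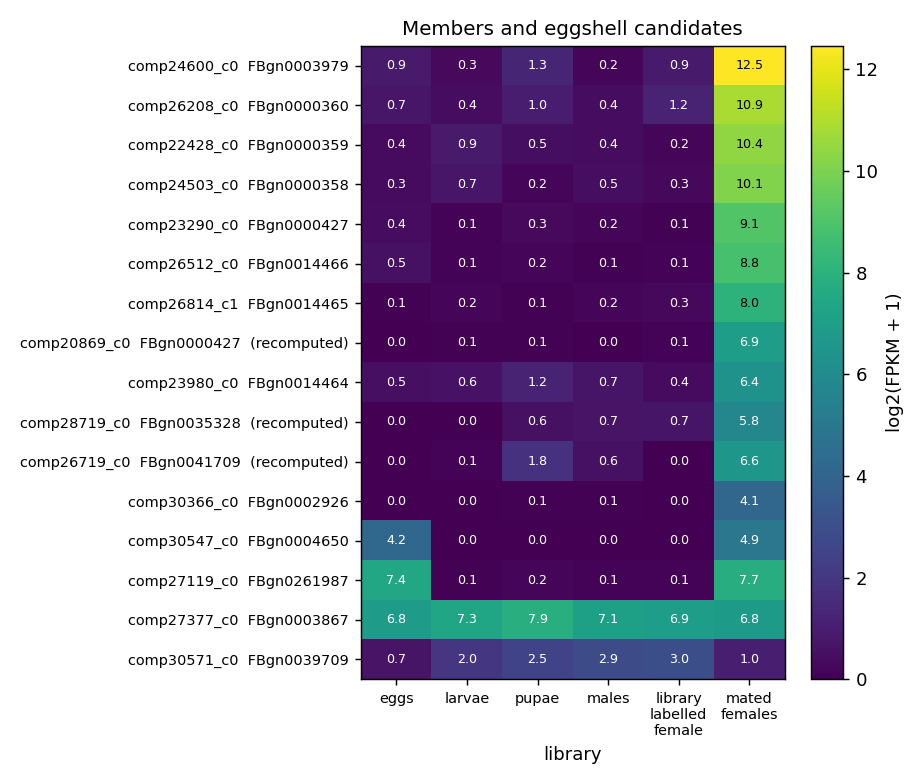
Level as log2(FPKM + 1) of the 2 members and 14 candidates (rows, with the paired identifier) in the 6 libraries (columns), ordered by the difference between mated females and the next highest library. Values of unigenes listed at 0 were recomputed. The top 12 rows are high in mated females alone, the next 2 in eggs and mated females.

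The members and the 10 candidates like them, which were picked by their values, took 114704 counts of the mated female library together, 1.28% of its total (1.27% to 1.28%). The members contributed 39.8% of these counts, with 28.7% from comp24600_c0 and 11.1% from comp24503_c0. By FPKM in mated females comp24600_c0 was in place 1 of the 12 unigenes and comp24503_c0 in place 4. In the other libraries the 12 unigenes had 43 counts in eggs, 25 for larvae, 80 for pupae, 47 for males and 44 in the library labelled female. Pupae were the highest of these at 10.2 CPM (8.18 to 12.7), with 28 of the 80 counts from comp26719_c0 and 7 from the members.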

How the data were processed

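The authors filtered reads on quality, reduced redundant reads for the assembly and assembled all libraries together with Trinity. Transcripts were filtered by read abundance, by share of their unigene and by predicted coding sequence. Isoforms of low abundance were thus removed before the isoforms given here were counted. The authors then aligned the reads with Bowtie 0.12.7 and estimated abundance with RSEM. Its version was 1.2.0 in the submitters' processing notes and another in the study's methods for expression. They deposited un-normalized RSEM expected counts and TMM-scaled FPKM values, each for unigenes and isoforms. Columns left without a sample numbered 0. TMM factors, effective totals and lengths were recovered from the ratio of deposited counts to FPKM. Counts were rounded for intervals. A count of 0 allows up to 3 counts as a one-sided limit.

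The members and lists were chosen with earlier results of these data known. Named were the members, their isoforms, the unigenes above them in mated females by FPKM, the 5 nearest profiles of each, the highest and lowest candidates, those not highest in mated females and dsx. The unigenes comp23290_c0, comp20869_c0, comp26719_c0 and comp28719_c0 were named after their values were seen. Names come from the study's supplementary lists, used here in part, and candidates were picked by identifier from general knowledge of D. melanogaster. No sequences were used here.

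The alternatives were FPKM without TMM factors or with size factors of DESeq2 1.42.0 (R 4.3.3), FPKM summed over isoforms, a pseudocount of 0.1, counts thinned to the smallest library, unigenes under 10 counts left out, order by counts and stricter bounds. Added after seeing the data were FPKM recomputed where listed at 0 and all alternatives for the numbers of unigenes 10 times higher in mated females. Computations used scipy 1.17.1, pandas 2.3.3, numpy 2.4.6 and matplotlib 3.10.9 in Python 3.11.15. Recovery of factors and lengths, ratios between libraries and the interval of count ratios were tested on simulated Poisson counts. The other computations were not tested in this way.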

Additional observations from a re-analysis of the deposited data

How the results depend on the processing

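No paired analysis was possible because each stage has 1 library, and no replicate could be left out. Of 65 alternative values for 17 results, 52 stayed within counting error or within 1.5 times the count and 13 moved further. Changes of direction numbered 0, but only the log2 ratios could change sign. For the other results, which cannot be negative, that 0 was fixed in advance. FPKM of comp24503_c0 in mated females was 1221 if TMM factors were left out, 1079 if they were replaced by DESeq2's size factors and 1216 summed over isoforms, and that of comp24600_c0 was 6220, 5494 and 6205. Removing TMM factors moved all unigenes of mated females by 0.35 against larvae and by -0.23 against eggs on the log2 scale, so differences below these sizes depend on the factors. With a pseudocount of 0.1 the log2 ratio of comp24503_c0 to the next library was 10.49. Ordered by counts, comp24503_c0 was in place 99 and comp24600_c0 in place 11, and the ratio between the members was 2.59. Unigenes at 11 or more in mated females alone numbered 159 with FPKM summed over isoforms and 27 with the stricter bounds, and those at 10 times every other library numbered 56 with FPKM recomputed where listed at 0. Of the 5 nearest profiles, 4 were the same for each member with a pseudocount of 0.1. Depth limits the other 5 libraries, where 1 to 6 counts support each value of a member.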
